A study of Mus musculus with 20 samples.

Results

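The genes of the mitochondrial respiratory chain and of ATP synthase were examined in RNA from mouse lung eosinophils, divided by the genome that encodes them. Members were the protein-coding genes whose symbols start with Nduf, Uqcr, Cox4, Cox5, Cox6, Cox7, Cox8 or Atp5, the genes Sdha to Sdhd and Cyc1, and the 13 protein genes of the mitochondrial genome. This gave 107 genes of 49315 identifiers in the count tables, 94 of them nuclear and 13 mitochondrial. Eosinophils, granulocytes that release toxic granule proteins and lipid mediators, were sorted by flow cytometry, and each library pooled the lungs of 3 to 5 mice. The resting group came from untreated C57BL/6 mice (n = 5 libraries). The day 7 group came from Balb/c lungs, 7 days after they were transplanted into C57BL/6 recipients without costimulatory blockade, a treatment that withholds the accessory signals T cells need (n = 5). The labels describe eosinophils that infiltrate the graft as cells of the recipient. They also list grafts with blockade at day 7 and day 30, 5 samples each, whose columns could not be tied to labels and were not analysed here. Apart from strain, the labels used here name no allele and no age for either group.

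Complexes I to IV pass electrons from NADH and succinate to oxygen, complexes I, III and IV pump protons across the inner mitochondrial membrane as they do so, and complex V, ATP synthase, makes ATP from that gradient. Complex II is encoded by nuclear genes alone, whereas complexes I, III, IV and V combine subunits made in the cytosol with subunits made on mitochondrial ribosomes. The mitochondrial genome is transcribed from both strands into long RNAs that are cut, mostly at tRNAs, into single messages. Granulocytes as a class hold few mitochondria and rely strongly on glycolysis, and eosinophils are known to keep more respiration than neutrophils.

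A stretch of nuclear DNA resembles a large part of the mitochondrial genome and bears on how mitochondrial reads can be counted. GENCODE (release M21, mm10) annotates 7 copies of mitochondrial protein genes there, on the minus strand of chromosome 1 between 24611535 and 24616197. The copies of mt-Co2, mt-Co3, mt-Atp6 and mt-Nd4l matched their genes at every aligned base, as did the 876 bases aligned for mt-Nd4. The copy of mt-Nd3 differed at 1 of 345 bases and that of mt-Co1 at 6 of 492. Of the 13 genes, mt-Co3, mt-Co2, mt-Atp6, mt-Nd4l and mt-Nd3 shared between 97.6% and 99.9% of their 100-base windows with another annotated gene, mt-Nd4 shared 60.8% and mt-Co1 30.8%. The first 90 bases of 2 genes are shown beside their copies, because they let a reader see which reads fit both genomes. A read from the mt-Co2 stretch fits both, as does one from the mt-Nd3 stretch that misses the differing base. Capitals mark the 1 base that differs.
mt-Co2: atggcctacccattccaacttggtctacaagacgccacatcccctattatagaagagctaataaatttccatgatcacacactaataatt
Gm28661 (copy of mt-Co2): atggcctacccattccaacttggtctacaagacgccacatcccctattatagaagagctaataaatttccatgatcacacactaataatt
mt-Nd3: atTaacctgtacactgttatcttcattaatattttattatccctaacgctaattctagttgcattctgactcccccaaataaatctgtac
Gm28438 (copy of mt-Nd3): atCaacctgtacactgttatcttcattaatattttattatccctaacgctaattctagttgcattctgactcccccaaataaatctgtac
The sources used here do not say how reads with more than 1 match were counted. Gm28661 held 122 ± 24.0 CPM (counts scaled to a common library size by the TMM method, mean ± SD, n = 5) in resting lung, beside 115 ± 28.2 for mt-Co2. Gm28437 held 375 ± 85.5 CPM beside 247 ± 55.5 for mt-Co3. The levels of mt-Co3, mt-Co2, mt-Atp6, mt-Nd4l and mt-Nd3 are therefore uncertain, and their changes are given below with and without the copies.

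Total counts were 6666577 to 12883144 per resting library and 15695074 to 26683784 per day 7 library, and a floor of 3 counts corresponded to between 0.112 and 0.450 CPM (counting error only). Each group came in a table of its own, so batch and group cannot be told apart. The labels do not say whether the pools were independent, and the p-values therefore reflect only how pools varied. Among defining eosinophil genes, named here outside the naming rule, Siglecf held 105 to 198 CPM in resting and 134 to 299 CPM in day 7 libraries, and Ccr3 held 159 to 471 and 170 to 808 CPM. The summed level of 12 eosinophil markers was 1665 to 3113 CPM in resting lung and 936, 1091, 1564, 2368 and 3213 CPM in day 7 replicates 1 to 5. Of these 12 markers 2 rose and 5 fell (16.7% and 41.7%, against 23.3% and 23.4% of all genes). All 5 that fell did so by at least 2-fold. Log2 differences (day 7 minus resting) over the 12 ran from -3.75 to 1.23, so Siglecf and Ccr3 do not stand for the whole list. Other cell types were represented too. The sum of 12 markers of monocytes and interstitial macrophages went from 1821–2624 to 4330–9440 CPM (10 rose), and the total of 10 T cell genes from 101–142 to 328–796 CPM (10 rose). The sums went down from 2028–2703 to 87.0–160 CPM for 10 endothelial markers (10 fell), from 3171–4533 to 40.7–494 CPM for 10 epithelial markers (9 fell) and from 8928–11908 to 4839–8925 CPM for 12 neutrophil markers (5 fell). Of further markers, 6 of 8 B cell genes, 6 of 6 red cell genes and 7 of 7 platelet genes fell. Of 10 alveolar macrophage markers 1 rose and 7 fell, and of 9 stromal markers 2 rose and 4 fell. The share of stromal rises was near the 23.3% of all genes. The part of these cell types in the results below was not tested, and in sorted bulk RNA fewer cells of a type and less RNA per cell cannot be told apart.

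The comparison asks how the transcripts of the respiratory chain differed between eosinophil libraries from an unprotected allograft and from undisturbed lung. The mitochondrial and the nuclear genes went in opposite directions. All 13 mitochondrial protein genes were lower at day 7, with a median log2 fold change (day 7 minus resting) of -1.28. Of the 91 nuclear genes tested 57 were higher and 3 lower, and their median was 0.37. Over all 16500 genes tested, 23.3% were called higher and 23.4% lower, with a median of 0.05, and 46.7% were called in either direction. A gene was called at an adjusted p below 0.05 in edgeR's quasi-likelihood test, with adjustment over all genes. By the same test 0 mitochondrial genes were higher, as were 0 at an unadjusted p below 0.05 and 0 with DESeq2. Only the 3 lower nuclear genes changed by at least 2-fold; 0 nuclear genes rose that much, against 9.08% of all genes. For 50 nuclear genes the groups were fully separate, 47 higher and 3 lower at day 7, against 35.1% of all genes in either direction. Scaling to library totals alone lowered the median of all genes by 0.19 on the log2 scale, and it gave 27 nuclear genes higher against 15.3% of all genes, and 13 mitochondrial genes lower against 29.5%. Relative to the median of all genes, the nuclear median was 0.32 with TMM and 0.31 with library totals, and the mitochondrial median was -1.33 and -1.32.

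The 13 mitochondrial genes took 2.57%, 1.90%, 1.82%, 2.14% and 1.42% of all counts in resting replicates 1 to 5. They took 0.529%, 0.513%, 0.740%, 1.13% and 1.10% in day 7 replicates 1 to 5. Every resting library lay above every day 7 library, and day 7 replicates 4 and 5 lay above the other 3. Within their group, replicates 4 and 5 had the highest sums of eosinophil markers and the lowest of monocyte and macrophage markers. In resting lung the order differed: replicate 1 had the highest mitochondrial share and the lowest eosinophil sum, 1665 CPM. The part of cell content in these shares was not tested. The 94 nuclear genes took 0.723%, 0.693%, 0.706%, 0.747% and 0.688% of counts in resting lung, and 0.763%, 0.908%, 0.870%, 0.785% and 0.798% at day 7. Here the groups were also separate, in the other direction, and the spread was smaller.

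**Figure D1:**
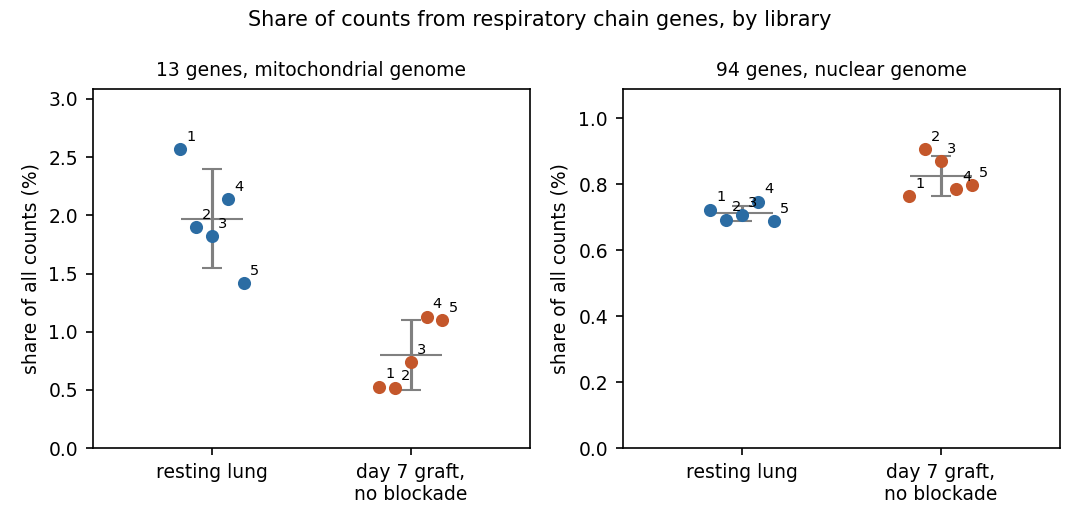
Share of all counts (%) taken by the 13 mitochondrial protein genes (left) and the 94 nuclear genes (right), 1 point per library with its replicate number; bars give the mean and SD of 5 libraries. The mitochondrial share lies between 1.42% and 2.57% in resting lung and between 0.513% and 1.13% at day 7, while the nuclear share lies between 0.688% and 0.747% and between 0.763% and 0.908%.

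The ratio of mitochondrial to nuclear counts was 3.55, 2.74, 2.58, 2.86 and 2.06 in resting replicates 1 to 5. It was 0.693, 0.565, 0.850, 1.44 and 1.37 in day 7 replicates 1 to 5. Thus mitochondrial counts exceeded nuclear ones in each resting library but in day 7 replicates 4 and 5 alone among the grafts. On the log2 scale the ratio went from 1.44 ± 0.28 to -0.12 ± 0.60 (SD, n = 5 each), a difference of -1.56, or 2.96-fold. With only the 6 mitochondrial genes that have no annotated copy on chromosome 1 the difference was -1.68. No p is given for this ratio, since it is a score over chosen genes.

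Mitochondrial genes are described in their order on the genome. mt-Nd1 (chromosome M, 2751 to 3707), a subunit of the membrane arm of complex I, held 1854 to 2984 CPM in resting lung and 735 to 1420 CPM at day 7, and fell by 1.14 ± 0.21 (log2, SE, adjusted p = 0.000531). The next subunit, mt-Nd2 (3914 to 4951), held 899 to 1504 and 291 to 695 CPM. Neither gene's groups overlapped. mt-Co1 (5328 to 6872) encodes the catalytic core of complex IV and was the most abundant message per kilobase. It held 8406, 6607, 6532, 7383 and 4686 CPM in resting replicates 1 to 5 and 2567, 2479, 3127, 5082 and 4660 CPM in day 7 replicates 1 to 5. Day 7 replicate 4 exceeded resting replicate 5, so the groups overlapped, and the fall of 0.91 ± 0.23 (adjusted p = 0.00528) was the smallest of the 13. mt-Co2 (7013 to 7696), which receives electrons from cytochrome c, went from 115 ± 28.2 to 49.6 ± 20.2 CPM, and its groups overlapped.

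mt-Atp8 and mt-Atp6 (7766 to 7969 and 7927 to 8607) encode the mitochondrial subunits of complex V and overlap each other, so their counts cannot be fully separated. mt-Atp8 went from 20.3 ± 4.68 to 8.56 ± 4.14 CPM and overlapped between groups, and mt-Atp6 went from 148 ± 29.8 to 62.3 ± 25.2 CPM without overlap. mt-Co3 (8607 to 9390), the other core subunit of complex IV, fell by 1.32 ± 0.26 (adjusted p = 0.00100). These 3 genes changed by about the median of the 13.

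The complex I genes mt-Nd3 and mt-Nd4l had the largest falls. mt-Nd3 (9459 to 9806) held 79.2, 61.5, 58.0, 50.5 and 45.7 CPM in resting lung and 10.1, 8.81, 14.1, 22.1 and 22.9 CPM at day 7, a fall of 1.92 ± 0.27 (adjusted p = 6.47e-05). mt-Nd4l (9877 to 10173), which overlaps mt-Nd4, held 22.3, 12.4, 12.3, 10.9 and 12.4 CPM and then 1.40, 1.15, 1.80, 3.41 and 3.06 CPM. It fell by 2.70 ± 0.32 (adjusted p = 1.11e-05). Neither gene's groups overlapped. With the counts of the chromosome 1 copies added, the falls were 1.84 for mt-Nd3, 2.00 for mt-Nd4l, 1.23 for mt-Co2, 1.25 for mt-Atp6 and 1.28 for mt-Co3, so the value of mt-Nd4l depends on how shared reads are counted. mt-Nd4 (10167 to 11544) and mt-Nd5 (11742 to 13565), large subunits of the membrane arm, fell by 1.35 ± 0.25 and 1.23 ± 0.22. mt-Nd6 (13552 to 14070), the only protein gene on the other strand, overlaps the end of mt-Nd5 and went from 411 ± 100.2 to 167 ± 68.5 CPM (a fall of 1.30 ± 0.26). mt-Cytb (14145 to 15288), the mitochondrial subunit of complex III, held 5169, 4120, 3770.4, 4328 and 3036 CPM in resting lung and 1207, 1135, 1569, 2231 and 2275 CPM at day 7. It fell by 1.28 ± 0.22 (adjusted p = 0.000337), and its groups did not overlap.

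**Figure D2:**
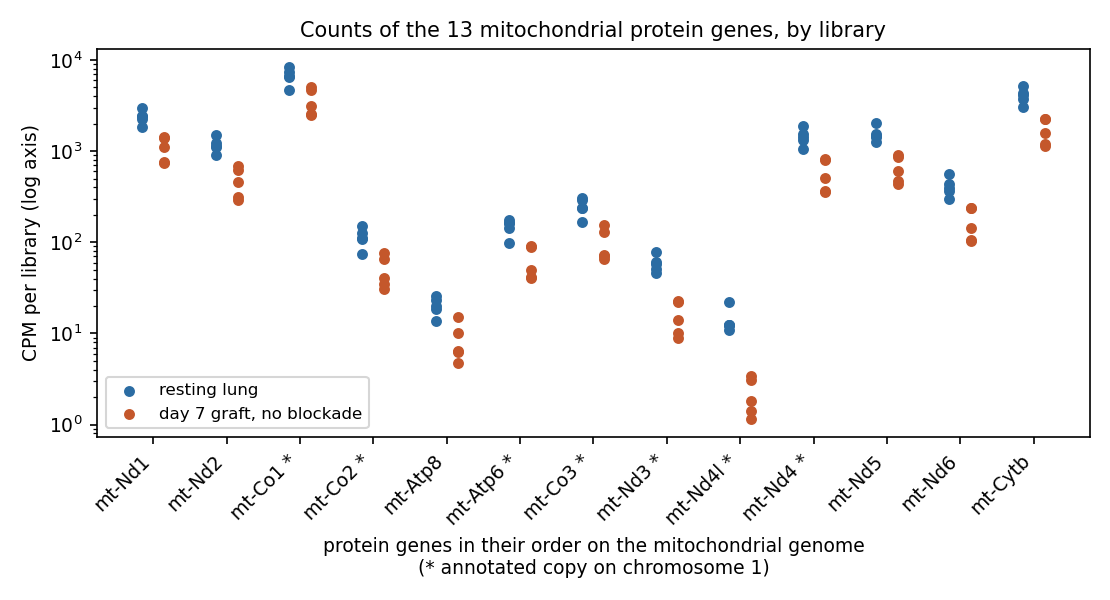
CPM of the 13 mitochondrial protein genes in each library on a log axis, in genome order; each point is 1 library (5 resting, 5 day 7) and an asterisk marks a gene with an annotated copy on chromosome 1. The day 7 points lie lower for every gene, with overlap for mt-Co1, mt-Co2 and mt-Atp8.

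Of the 13 genes 10 had day 7 libraries all below the resting ones, against 18.7% of all genes tested, and 12 fell by at least 2-fold, against 16.3%. The 7 genes with an annotated copy on chromosome 1 had a median of -1.32 and the 6 without one there -1.26. The 7 copies themselves were all called lower (median -1.25). Among the 6 is mt-Atp8, which lies between mt-Co2 and mt-Atp6 on the mitochondrial genome. Whether the unannotated stretch between the chromosome 1 copies of those genes resembles mt-Atp8 was not examined. By complex the medians were -1.30 for 7 genes of complex I, -1.28 for mt-Cytb, -1.21 for 3 genes of complex IV and -1.25 for 2 genes of complex V. The spread between libraries was wider at day 7, with a median coefficient of variation of 40.4% against 21.5% in resting lung. The falls were not equal within the genome. Shares within the 13 genes, given next, leave out the counts of the chromosome 1 copies. Those of mt-Nd3 and mt-Nd4l therefore depend on how shared reads were counted. mt-Co1 made up 36.5 ± 1.45% of the 13-gene counts in resting lung and 42.4 ± 1.43% at day 7, while mt-Cytb made up 22.2 ± 0.37% and 19.97 ± 0.51%, mt-Nd3 0.321 ± 0.033% and 0.180 ± 0.019%, and mt-Nd4l 0.0763 ± 0.0168% and 0.0247 ± 0.0036% (SD, n = 5).

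The tables also list 22 mitochondrial tRNA genes, the short genes that separate many of the protein genes. All 20 that passed the filter were lower at day 7 (23.4% of all genes), with a median of -1.89 and a range from -4.51 to -0.90. Among genes named after their values were seen, mt-Th went from 10.8 ± 3.09 to 0.477 ± 0.372 CPM, mt-Tl2 from 12.1 ± 1.78 to 0.737 ± 0.531 CPM, and mt-Tl1 from 72.8 ± 17.7 to 24.5 ± 10.5 CPM. Genes as low at day 7 as mt-Th and mt-Tl2 can pass the filter through their resting libraries alone. Mature tRNAs are too short to be recovered in full by this kind of library. The genes of the mitochondrial ribosomal RNAs were not analysed here.

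Complex I is the largest complex and takes electrons from NADH. Of its 37 nuclear subunit genes 26 were higher and none lower (median 0.39), against 23.3% and 23.4% of all genes. In 21 the day 7 libraries all lay above the resting ones (16.4% of all genes). With library totals 10 were higher and Ndufa6 was lower, against 15.3% and 29.5% of all genes. DESeq2 gave 25 higher (23.6% of all genes) and 0 lower, and at an unadjusted p below 0.05 there were 28 and 0. All 8 Ndufs genes, which encode mostly catalytic and iron-sulfur subunits of the peripheral arm, rose with TMM, 7 with DESeq2 and 4 with library totals. Ndufs4 (chromosome 13, 114287795 to 114388258), a late-assembled accessory subunit, held 40.7, 40.1, 39.9, 41.0 and 40.8 CPM in resting lung and 64.1, 75.1, 70.8, 58.3 and 58.3 CPM at day 7. It rose by 0.69 ± 0.10 (adjusted p = 7.4e-05), and its resting libraries were nearly equal. Ndufs3, a core subunit of the peripheral arm, went from 27.9 ± 2.33 to 44.6 ± 7.19 CPM. Ndufa9 (chromosome 6, 126821721 to 126849136), at the junction of the arms, had the largest rise of the complex, 0.71 ± 0.13 (adjusted p = 0.000465), from 45.4–57.7 to 66.4–99.3 CPM.

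Not every complex I gene followed. Of the flavoprotein genes, Ndufv2 and Ndufv3 rose, whereas Ndufv1, which binds NADH, held 54.3 to 67.6 CPM in resting lung and 56.1 to 77.6 CPM at day 7 (adjusted p = 0.396). Of 14 Ndufa genes 8 rose, and of 10 Ndufb genes, which encode subunits of the membrane arm, 6 rose (23.3% of all genes). Ndufa1, a small membrane subunit and the most abundant of the nuclear complex I genes per kilobase, went from 86.7 ± 8.29 to 119 ± 7.24 CPM. Ndufa4 is named for complex I and counted with it here by its symbol, but it is now placed with complex IV. It held 97.0 to 118 CPM and 79.3 to 115 CPM (log2 difference -0.08 ± 0.11, adjusted p = 0.611). None of the 8 genes of complex I assembly factors, Ndufaf1 to Ndufaf8, was called (median 0.14). For these, 1 was higher at an unadjusted p below 0.05, and DESeq2 called 0. Their libraries overlapped in all 8, and their levels were low, at a median of 3.98 CPM per kilobase against 32.9 for the subunits.

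Complex II links the citric acid cycle to the chain and has no mitochondrial subunit. Sdhd (chromosome 9, 50596357 to 50603812), a membrane anchor, held 80.9, 73.6, 82.8, 71.0 and 73.5 CPM in resting lung and 112, 152, 137, 113 and 104 CPM at day 7, and rose by 0.69 ± 0.12 (adjusted p = 0.000318). Sdhb, the iron-sulfur subunit, went from 110 ± 8.67 to 170 ± 29.6 CPM, a rise of 0.63 ± 0.13 (adjusted p = 0.000985). The groups of both genes were separate. Sdhc, the other anchor, held 44.9 to 51.0 and 49.4 to 68.4 CPM (adjusted p = 0.0415), but the call was lost in 10 alternatives, among them DESeq2 (adjusted p = 0.0569). It was also lost without resting replicate 2, 3 or 5 or without day 7 replicate 1, 2 or 3, at adjusted p between 0.0519 and 0.0951. Sdha, the flavoprotein and the most abundant of the 4 in CPM, held 208 to 245 and 218 to 277 CPM, with overlap (adjusted p = 0.354).

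Complex III passes electrons from ubiquinol to cytochrome c. Of 9 nuclear genes 5 rose and none fell (median 0.28), against 23.3% and 23.4% of all genes. By an unadjusted p below 0.05 and by DESeq2, 0 were lower. With library totals 3 rose, against 15.3% of all genes, and the median was 0.09. Both genes of nuclear catalytic subunits rose. Cyc1 (chromosome 15, 76343523 to 76346260), cytochrome c1, held 62.8, 58.6, 64.4, 67.1 and 62.7 CPM in resting lung and 99.0, 121, 106, 88.1 and 86.3 CPM at day 7, a rise of 0.67 ± 0.11 (adjusted p = 0.000229). Uqcrfs1, the Rieske iron-sulfur protein, rose by 0.61 ± 0.10 (adjusted p = 0.000184). Their mitochondrial partner mt-Cytb fell in the same libraries. Among supporting subunits Uqcrq, Uqcrb and Uqcrc2 rose (Uqcrb and Uqcrc2 not with library totals, adjusted p = 0.0586 for Uqcrb), while the core protein gene Uqcrc1 held 147 to 179 and 165 to 234 CPM (adjusted p = 0.192). The hinge protein gene Uqcrh and Uqcr11 had log2 differences of 0.04 and -0.03.

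Complex IV reduces oxygen, and several of its nuclear subunits come in a common form and a form restricted to certain tissues. Of its 15 nuclear genes tested 9 rose and 2 fell (60% and 13.3%, against 23.3% and 23.4% of all genes), with a median of 0.33. Leaving out the tissue-restricted genes, a step added after seeing the data, 9 of 11 genes rose and none fell (median 0.43). Of these 11, 0 were lower at an unadjusted p below 0.05 and with DESeq2. With library totals 5 rose, against 15.3% of all genes, and the median was 0.24. The largest rises of all 94 nuclear genes were here. Cox7b (chromosome X, 106015700 to 106022450), a small membrane subunit, held 50.1, 53.0, 55.6, 53.1 and 52.9 CPM in resting lung and 104, 124, 109, 94.4 and 90.8 CPM at day 7. It rose by 0.98 ± 0.10 (adjusted p = 4.33e-06). Cox5a (chromosome 9, 57521274 to 57532426), on the matrix side, held 58.2, 63.9, 65.6, 61.6 and 61.3 CPM and then 114, 150, 121, 111 and 113 CPM. Its rise was 0.97 ± 0.11 (adjusted p = 5.86e-06). For both genes each day 7 library lay above each resting library. Cox5b, the zinc-binding subunit, rose by 0.75 ± 0.10 (adjusted p = 4.26e-05). The most abundant nuclear members per kilobase, Cox8a and Cox6a1, rose by 0.43 ± 0.11 and 0.33 ± 0.10, and lost the call with library totals (adjusted p = 0.0720 and 0.256). Cox7c and the supercomplex factor gene Cox7a2l did not pass the test.

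The tissue-restricted forms went the other way or stood near the floor. Cox4i2 (chromosome 2, 152754173 to 152765037), the lung form of subunit 4, held 11.5, 9.21, 12.7, 13.2 and 10.3 CPM in resting lung and 1.15, 0.438, 0.899, 0.328 and 0.161 CPM at day 7. Its fitted log2 difference was -4.21 ± 0.37. The common form Cox4i1 rose from 198–215 to 237–313 CPM in the same libraries, by 0.34 ± 0.10 (adjusted p = 0.0162), and lost the call with library totals (adjusted p = 0.223). Ndufa4l2 (chromosome 10, 127514967 to 127517154), a paralogue of Ndufa4 known to respond to low oxygen, held 7.18, 5.45, 4.53, 5.39 and 5.39 CPM and then 0, 0.328, 0.156, 0.197 and 0.429 CPM. Only 21 counts over all day 7 libraries lie behind its fitted log2 difference of -4.59 ± 0.43. Cox6b2, known as the testis form of subunit 6b, went from 3.91–5.60 to 0.364–1.18 CPM (log2 difference -2.57 ± 0.30). The groups of these 3 genes did not overlap. All 3 passed the filter on low counts through their resting libraries alone and lay near the floor at day 7, so being tested already favoured a lower call, and the size of the difference is imprecise.

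The muscle forms Cox6a2 and Cox7a1 held 1.06 to 3.23 and 2.56 to 7.31 CPM in resting lung and 0.546 to 1.75 and 1.52 to 5.38 CPM at day 7, and did not pass the test (adjusted p = 0.163 and 0.119). Without day 7 replicate 4 the adjusted p of Cox7a1 was 0.0476. Cox7b2, Cox8b and Cox8c were too low to test. The 3 falls stood beside sums of endothelial and epithelial markers that were lower in all day 7 libraries, and stromal markers at 450–570 and 135–671 CPM; their part in the falls was not tested. Markers of heart and skeletal muscle summed to 21.3–33.5 and 11.2–16.4 CPM. Of 7 tested, 4 were lower and 1 higher, against 23.4% and 23.3% of all genes.

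**Figure D3:**
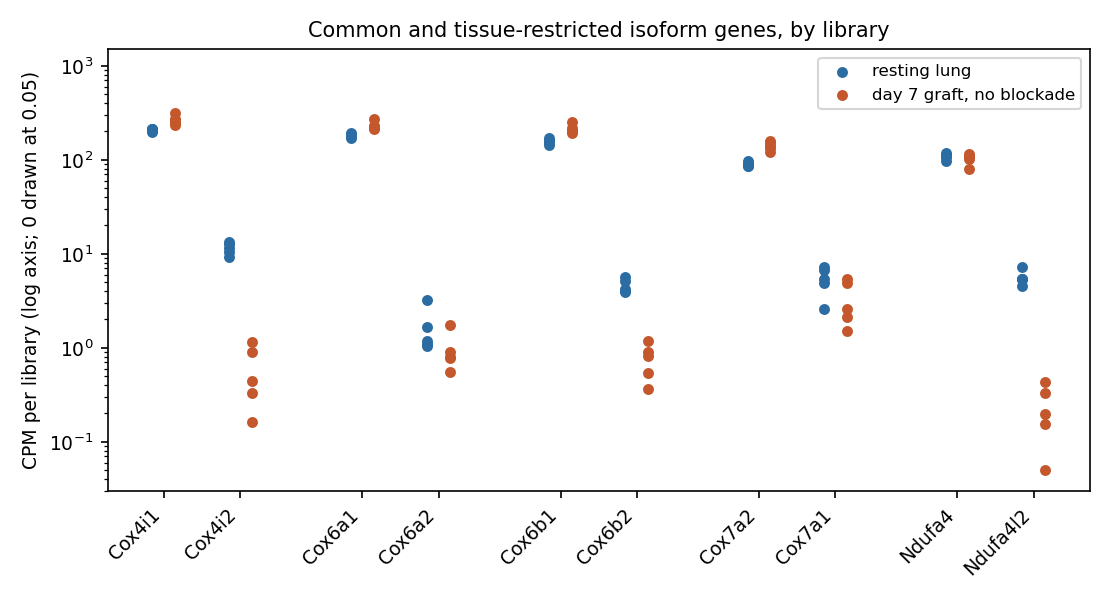
CPM per library on a log axis for common and tissue-restricted forms of complex IV subunits and for Ndufa4 and Ndufa4l2; each point is 1 of 5 libraries per group, and a value of 0 is drawn at 0.05. Cox4i2, Cox6b2 and Ndufa4l2 are lower in every day 7 library, while Cox4i1, Cox6a1, Cox6b1 and Cox7a2 are higher.

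Complex V turns the proton gradient into ATP. Of its 16 nuclear genes 14 rose and none fell (median 0.41), against 23.3% and 23.4% of all genes. At an unadjusted p below 0.05 there were 16 and 0. DESeq2 gave 13 and 0, against 23.6% and 25.3% of all genes. Library totals gave 7 and 0, against 15.3% and 29.5%. Atp5b (chromosome 10, 128083273 to 128090391), the catalytic beta subunit and the most abundant nuclear member in CPM, held 559, 535, 568, 579 and 555 CPM in resting lung and 865, 912, 854, 696 and 646 CPM at day 7. It rose by 0.51 ± 0.12 (adjusted p = 0.00393), and day 7 replicates 4 and 5 were the lowest of their group. Atp5mpl, a small membrane subunit, rose by 0.87 ± 0.11 (adjusted p = 1.78e-05), from 40.8–51.5 to 78.3–96.9 CPM.

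Of the 3 genes that encode the same c subunit of the rotor, Atp5g1 rose by 0.80 ± 0.15 (adjusted p = 0.00077) and Atp5g3, the most abundant, by 0.64 ± 0.11 (adjusted p = 0.000256). Atp5g2 went from 22.04 ± 2.80 to 29.6 ± 5.41 CPM (adjusted p = 0.0269). Its call was lost in 6 alternatives, among them leaving out resting replicate 2 or 5 or day 7 replicate 2 (adjusted p = 0.0642, 0.0669 and 0.0618). It also shared 34.7% of its 100-base windows with other annotated genes. Atp5k and Atp5l had adjusted p of 0.0592 and 0.0606. Atp5s, matched by its prefix alone, did not pass the test (adjusted p = 0.234).

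**Figure D4:**
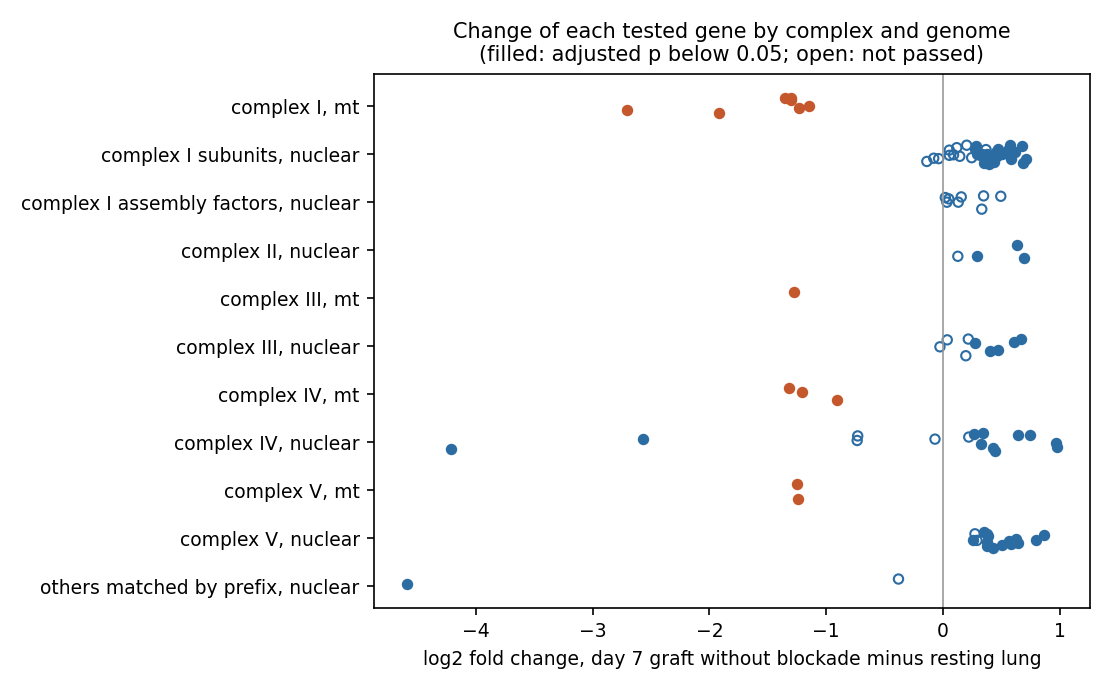
Log2 fold change (day 7 minus resting) of each of the 104 tested genes by complex and genome; filled points passed the test and open points did not, and vertical scatter within a row only separates points. The mitochondrial genes (orange) lie between -2.70 and -0.91, and the nuclear genes (blue) lie between -0.38 and 0.98 apart from 5 tissue-restricted forms.

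Within each complex that both genomes build, the ratio of mitochondrial to nuclear counts was lower at day 7 with no overlap between groups. The log2 ratio went from 1.83 ± 0.25 to 0.18 ± 0.60 in complex I and from 2.41 ± 0.30 to 0.78 ± 0.58 in complex III. In complex IV it went from 2.42 ± 0.34 to 1.02 ± 0.56, and in complex V from -3.66 ± 0.32 to -5.45 ± 0.71 (SD, n = 5 each). The differences were -1.64, -1.63, -1.40 and -1.79. In complex V the ratio rests on mt-Atp6 and mt-Atp8 alone. Gm10925, the copy of mt-Atp6, held 121 ± 25.3 CPM in resting lung beside 148 ± 29.8 for mt-Atp6. The level of the complex V ratio is therefore uncertain. The nuclear genes varied less between libraries than the mitochondrial ones, with median coefficients of variation of 8.12% in resting lung and 12.8% at day 7. Levels per kilobase had medians of 791 CPM in resting lung and 321 CPM at day 7 for mitochondrial genes, and of 34.0 and 43.2 CPM for nuclear genes.

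**Figure D5:**
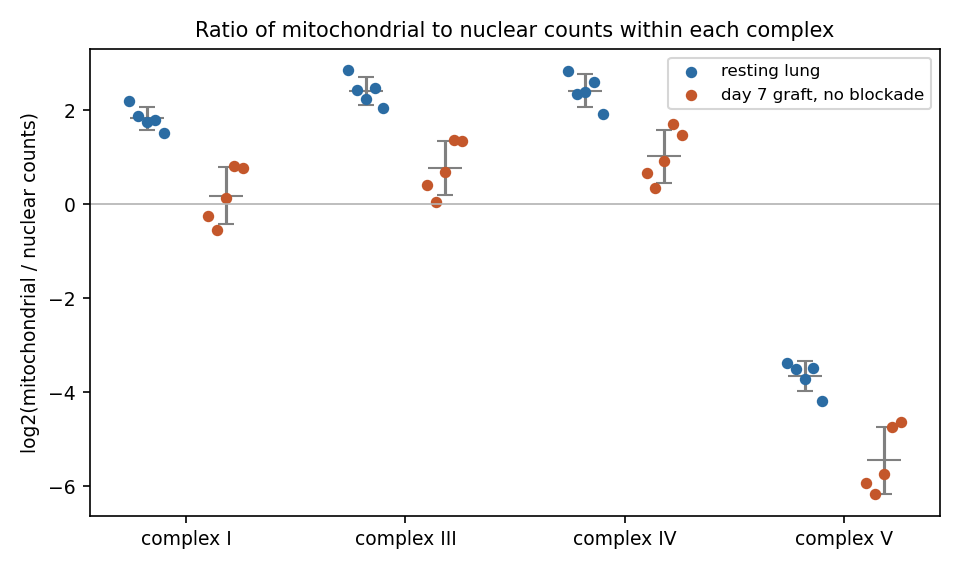
Log2 ratio of mitochondrial to nuclear counts in each library for complexes I, III, IV and V; points are libraries and bars give the mean and SD of 5. In each complex the 5 day 7 libraries lie below the 5 resting libraries, with differences of means from -1.79 to -1.40.

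The promoters of the nuclear genes were searched for sequences associated with coordinated control of the chain. RefSeq windows (GRCm38.p6, 250 bases before to 50 after the start) matched 74 of the 94 genes. The letters searched on both strands were GCGCA and GCGC with any 1 base between them for nuclear respiratory factor 1, CCGGAAG for ETS factors such as GABP, and AAGATGGC for YY1. They occurred in 18 (24.3%), 17 (23.0%) and 9 (12.2%) of the 74 windows. Of all 27025 windows of the same length 4.78%, 9.12% and 2.88% held them. At least 1 of the 3 was in 38 member windows (51.4%), against 15.2% of all. The 27025 windows were not limited to the genes tested here, so they are not a set matched to the members in expression. Among the 44 windows of genes that rose the counts were 10, 11 and 8, and among 27 windows of genes that did not pass they were 8, 6 and 1. The difference between those was not tested. The 150 bases before the start of Sdhd (chr9:50603850-50603999, minus strand) are shown because this gene had the largest rise among those with the NRF1 or the ETS letters in that stretch; capitals mark both, the ETS letters as their reverse complement.
Sdhd: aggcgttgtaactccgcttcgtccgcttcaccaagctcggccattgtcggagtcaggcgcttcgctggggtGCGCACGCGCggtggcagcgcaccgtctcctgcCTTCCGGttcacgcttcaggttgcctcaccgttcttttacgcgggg
A match describes letters and not a bound site. Of the genes for the factors, Nrf1 held 56.8 to 62.5 CPM in resting lung and 56.0 to 70.3 CPM at day 7 (adjusted p = 0.602), and Gabpa held 35.6 to 44.6 and 37.9 to 71.6 CPM (adjusted p = 0.107). Without day 7 replicate 5 the adjusted p of Gabpa was 0.0328.

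Other genes of the same organelle were counted from lists. Of 30 genes for transcription, RNA processing and DNA maintenance in mitochondria 11 rose (36.7%, against 23.3% of all genes) and none fell (median 0.32). At an unadjusted p below 0.05 and with DESeq2, 0 were lower. With library totals 4 rose and 2 fell (median 0.12), against 15.3% and 29.5% of all genes. Tfam, which packages the mitochondrial genome and starts its transcription, held 21.7 to 29.4 and 19.4 to 27.1 CPM (adjusted p = 0.587). Polrmt, the mitochondrial RNA polymerase, held 15.4, 14.3, 9.16, 11.5 and 9.01 CPM and then 12.6, 7.77, 7.03, 7.75 and 8.16 CPM (log2 difference -0.45 ± 0.21, adjusted p = 0.0975). Without day 7 replicate 1 its difference was -0.61 (adjusted p = 0.0212), and with library totals -0.65 (adjusted p = 0.0231). Lrpprc, which stabilises mitochondrial messages, had a log2 difference of 0.31 ± 0.12 (adjusted p = 0.0521), and adjusted p of 0.0351 and 0.0122 without day 7 replicate 4 or 5. Its partner Slirp rose by 0.93 ± 0.14 (adjusted p = 8.68e-05). Pnpt1, a mitochondrial RNA-degrading enzyme, held 15.9, 13.5, 16.9, 10.1 and 16.8 CPM in resting lung and 36.1, 37.8, 41.5, 33.0 and 29.0 CPM at day 7. It rose by 1.27 ± 0.16 (adjusted p = 1.59e-05), the largest change of the list.

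Of 78 genes for proteins of the mitochondrial ribosome 41 rose (52.6%, against 23.3% of all genes) and 1 fell (median 0.38). Mrpl39 (1.17 ± 0.18) and Mrps22 (1.12 ± 0.20) were among those that rose. With library totals 18 of the 78 rose and 2 fell, with a median of 0.18. Of 32 tested assembly factor genes of complexes II to V 9 rose and 1 fell, a share of rises near the 23.3% of all genes. Sco1, a copper carrier for complex IV, rose by 0.96 ± 0.19. Coa5, another assembly factor of complex IV, rose by 0.82 ± 0.14. Among 14 nuclear regulators 4 rose and 1 fell (28.6% and 7.14%, against 23.3% and 23.4% of all genes). Hif1a, the oxygen-responsive factor, rose by 1.11 ± 0.16, and Esrra, a nuclear receptor that drives mitochondrial genes, by 0.88 ± 0.16. The coactivator gene Ppargc1a fell by 1.30 ± 0.34 and its relative Ppargc1b rose by 1.05 ± 0.35, both from levels under 5 CPM. The call of Ppargc1b was lost without resting replicate 5 or day 7 replicate 2 or 3 (adjusted p = 0.0562, 0.0568 and 0.0587).

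Of 22 genes for carriers, channels and import 14 rose (63.6%, against 23.3% of all genes) and 1 fell (median 0.41). With library totals 7 rose and 2 fell, with a median of 0.22. Cycs, cytochrome c, which carries electrons from complex III to IV, held 59.7, 63.1, 59.4, 59.0 and 64.1 CPM in resting lung and 140, 162, 137, 122 and 117 CPM at day 7, a rise of 1.15 ± 0.11 (adjusted p = 1.22e-06). The chaperonin gene Hspe1 rose by 1.11 ± 0.15. The ADP/ATP carrier genes differed in direction: Slc25a5 rose by 0.59 ± 0.13 and Slc25a4, the form of heart and muscle, fell by 0.62 ± 0.13. The uncoupling protein gene Ucp2 did not pass the test (adjusted p = 0.306). Of 16 citric acid cycle genes 7 rose (43.8%, against 23.3% of all genes) and 1 fell (median 0.24). With library totals 4 rose and 3 fell, with a median of 0.04. Cs, citrate synthase, rose by 0.64 ± 0.11 and Fh1, fumarase, by 0.58 ± 0.13. Of 18 glycolysis genes 14 rose (77.8%) and 1 fell (median 1.23). With library totals 13 rose and 2 fell, with a median of 1.03. Tpi1, triosephosphate isomerase, rose by 2.34 ± 0.18 and Hk3, a hexokinase of myeloid cells, by 2.27 ± 0.29. Of 13 genes for mitophagy, fission and fusion 3 rose and 5 fell, beside 23.3% and 23.4% of all genes. Pink1, a kinase that marks damaged mitochondria, held 102, 131, 150, 172 and 143 CPM in resting lung and 48.1, 46.9, 49.3, 49.4 and 44.8 CPM at day 7. It fell by 1.55 ± 0.13 (adjusted p = 4.64e-07), with no overlap between the groups.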

How the data were processed

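The authors deposited raw counts per gene, whole numbers with a different total in each library. Trizol was used for the extraction and the NEBNext Ultra II kit for the libraries, per the labels' protocols. The submitters' processing notes name bcl2fastq 2.17, Trimmomatic 0.36, STAR 2.5.2b, featureCounts, Subread 1.5.2 and the build mm10. No source used here gives the strand setting or says how multi-mapping reads were handled. Use was limited to columns whose names match sample labels, 5 resting and 5 day 7, and 10 further columns were not used. Symbols came from GENCODE M21 (49056 of 49315 identifiers). After filterByExpr, 16500 genes were tested with edgeR 4.0.16 (R 4.3.3) by the robust quasi-likelihood test with TMM scaling and no covariate, adjusted by the Benjamini-Hochberg method at 0.05, and the procedure was tested on simulated data. SE is the size of the log2 fold change over the square root of F. Libraries of one group differed by more than sampling noise (chi-square per degree of freedom at least 5.95).

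The members and lists were chosen with earlier results of these data known. Named genes were all 13 mitochondrial genes; in each nuclear class up to 3 called rises, 3 called falls and the most abundant gene per kilobase; fixed isoform, complex II and complex III genes; and up to 2 called genes and fixed genes of each of 8 lists. Other members are named with their values for completeness, chosen after those were seen. A gene that the rule names is not reported here. Of 349 list entries 5 matched no identifier. Alternatives were library totals, DESeq2 1.42.0, other filters, a replicate block, no mitochondrial genes in the scaling, and leaving out each library.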

Additional observations from a re-analysis of the deposited data

Results flagged for a closer look

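In 4 of 106 groups of 5 libraries examined, 1 library stood apart from the other 4 by a Dixon test; chance alone gives about 1 in 20. mt-Nd4l was highest in resting replicate 1, at 22.3 CPM against 10.9 to 12.4 in the others. Sdhb was highest in resting replicate 2, at 125.0 CPM against 103 to 108. Cox5a was highest in day 7 replicate 2, at 149.8 CPM against 111 to 121. Cox6a2 was highest in resting replicate 4, at 3.23 CPM against 1.06 to 1.65.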

How the results depend on the processing

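Over 18 alternatives of the fit, all 13 mitochondrial genes stayed lower, and 0 of 73 named genes tested reversed. A change of sign was counted as a reversal only where either fit called the gene. Ndufa4, which was not called, ranged from -0.11 to 0.014 on leaving out each library. Of 60 named genes called, 7 lost the call in at least 1 alternative (Atp5g2, Cox4i1, Cox6a1, Cox8a, Ppargc1b, Sdhc and Uqcrb), and 5 gained one (Cox7a1, Gabpa, Lrpprc, Polrmt and Ucp2). With library totals alone, 27 nuclear genes were higher, all of them also called with TMM, and 4 lower; the median of the 91 nuclear genes tested was 0.17, and 2521 of all genes were higher. With a mean of at least 5 CPM, 1 nuclear gene was lower, since the others were too low to enter, and without a filter 6715 of all genes were lower. Without the tissue-restricted isoforms, an alternative added after seeing the data, 0 nuclear genes were lower. DESeq2 gave 54 nuclear genes higher and 3 lower. Leaving out each library gave 47 to 58 nuclear genes higher and 3 to 4 lower, 13 mitochondrial genes lower and 0 higher, 3508 to 3976 of all genes higher and 3669 to 4020 lower. Medians ranged from 0.31 to 0.42 (nuclear) and -1.46 to -1.15 (mitochondrial), and the log2 ratio differed by -1.72 to -1.39. The ratio was -1.58 with counts divided by gene length, -1.57 with complexes I, III, IV and V only and -1.70 without the highest gene of each genome. Copies added to their genes, also chosen after seeing the data, left 57 nuclear genes higher.

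Replicate numbers did not pair the libraries: same-numbered libraries had correlations of -0.19 to 0.12, and 0 of 5 correlated best with its own number. With the number as a block, 43 nuclear genes were higher, 3 lower and 13 mitochondrial genes lower. Depth limits Cox4i2, Cox6b2, Ndufa4l2 and the lowest tRNA genes, such as mt-Th, whose day 7 values lie near the floor.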
